A study of Mus musculus with 16 samples.

Results

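Peptide and nucleoside transporters of the Slc15, Slc28 and Slc29 families were examined as 8 genes among the 37991 rows of a mouse heart RNA-seq count table. They were the rows whose Ensembl identifiers map to Slc15a2, Slc15a3, Slc15a4, Slc28a2, Slc28a3, Slc29a1, Slc29a2 and Slc29a3. Slc15a2 and Slc28a2 were already known to be lower in diseased hearts when the set was chosen, so every comparison of diseased with control hearts is given here as a description. No p-value of a member is printed for that contrast, and counts of calls in it support nothing. The libraries came from the left and right ventricle of 8 mouse embryos of C57BL/6 background. Embryos with hypoplastic left heart syndrome (HLHS), a malformation in which the left ventricle and its outflow are underdeveloped, numbered 1 per stage, and the stages were E13.5, E14.5 and E17.5. Their control littermates numbered 1 in the youngest litter and 2 in each of the older litters. Each group therefore held 3 HLHS or 5 control libraries per ventricle, 16 in all. The labels give the phenotype and the line number 635 but no allele, and controls are named only as such, so what the controls carry is not known here. The E14.5 litter bears the prefix 635AP and the other litters the prefix 635, a difference that the labels do not explain. Each stage was a single litter, so stage and litter cannot be told apart.

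Slc15 proteins carry di- and tripeptides together with protons. Slc15a2 is a high-affinity carrier of the cell surface, whereas Slc15a3 and Slc15a4 sit in endosomes and lysosomes and carry peptides and histidine. Slc28 proteins concentrate nucleosides into cells by using the sodium gradient, Slc28a2 preferring purine nucleosides such as adenosine and Slc28a3 taking purines and pyrimidines. Slc29 proteins let nucleosides equilibrate across membranes, and in heart muscle uptake through Slc29a1 is a known route by which extracellular adenosine is cleared.

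Library totals ran between 17081273 and 28648645 counts. All 8 markers of ventricular cardiomyocytes were measured in every library, with a summed level between 21092 and 34956 CPM (counts scaled to the size of their library), while 3 lung markers summed to at most 0.821 CPM and 4 liver markers to at most 14.2 CPM. HLHS right ventricles had cardiomyocyte sums of 27707, 21092 and 26904 CPM by rising stage, with 0 of 8 markers called. Their control littermates had 32651, then 23839 and 25758, then 34956 and 31800 CPM. In left ventricles the HLHS sum lay below its littermates at E13.5 and E17.5 and between them at E14.5, with 1 of 8 markers called lower. In the left ventricle, erythroid markers summed to 623 to 1120 CPM in HLHS embryos and to 391 to 688 CPM in controls, and 8 of the 9 measured passed as higher in HLHS. Smooth muscle and pericyte markers summed to 1805 to 2721 CPM in HLHS and 1576 to 1764 CPM in control left ventricles, with 2 of 6 called higher and 1 lower, and 3 of 7 fibroblast markers were called lower. The part of these cells in the HLHS differences was not tested. In bulk tissue, fewer cells of a type and less RNA per cell cannot be told apart.

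The promoters of Slc15a2 and Slc28a2, the members with the largest HLHS differences, are printed from RefSeq on GRCm38.p6, from 250 bases before to 50 bases after the annotated start. The Slc15a2 window is chr16:36784913-36785212 on the minus strand and the Slc28a2 window is chr2:122426185-122426484 on the plus strand. Capitals mark matches to the TATA box TATAAA, the Sp1-type box GGGCGG, the NF-Y box CCAAT, the GATA core AGATAA, the nuclear receptor element AAGGTCA, the hypoxia-type core ACGTG or the E-box CACGTG. Each was searched on both strands, and the hypoxia-type core also lies within that E-box.
Slc15a2: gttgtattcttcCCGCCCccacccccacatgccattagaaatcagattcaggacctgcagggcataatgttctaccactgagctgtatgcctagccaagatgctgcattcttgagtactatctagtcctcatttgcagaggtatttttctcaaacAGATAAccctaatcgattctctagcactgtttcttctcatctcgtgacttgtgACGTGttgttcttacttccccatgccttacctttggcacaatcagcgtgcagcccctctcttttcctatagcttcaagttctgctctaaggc
Slc28a2: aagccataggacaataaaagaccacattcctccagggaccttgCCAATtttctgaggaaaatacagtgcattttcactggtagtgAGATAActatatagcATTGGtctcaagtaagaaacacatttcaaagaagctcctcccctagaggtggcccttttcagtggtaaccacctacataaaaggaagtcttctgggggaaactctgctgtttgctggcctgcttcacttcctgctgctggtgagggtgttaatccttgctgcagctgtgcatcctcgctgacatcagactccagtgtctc
The Slc15a2 window held the Sp1-type box on its opposite strand, the GATA core and the hypoxia-type core, which occur in 35.7%, 11.2% and 19.6% of 32851 promoter windows. The Slc28a2 window held CCAAT on both strands and AGATAA, and CCAAT occurs in 37.4% of the windows. AGATAA was the only searched motif in both windows. A match describes letters and is not a binding site.

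Levels set between genes were taken as CPM per kilobase of merged exons. By the median over the 16 libraries, Slc29a1 was the most abundant at 14.6 CPM per kilobase and Slc29a2 followed at 12.1, with overlapping ranges. Slc15a4 at 3.95 and Slc29a3 at 2.43 each lay apart from the gene next above, which was higher in 16 of 16 libraries. Slc28a2 at 0.523, Slc15a3 at 0.450 and Slc15a2 at 0.289 overlapped one another. Slc29a3 was above Slc28a2 in 13 of 16 libraries, and their ranges overlapped. In E17.5 control left ventricles Slc28a2 had 2.96 and 3.31 CPM per kilobase, against 1.84 and 2.05 for Slc29a3. The E17.5 control right ventricles had 2.41 and 1.67 of Slc28a2, against 1.65 and 2.10 of Slc29a3. Slc28a3 was the lowest at 0.0207. The equilibrative carriers of the cell surface were thus far more abundant in ventricle than either concentrative carrier.

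**Figure D1:**
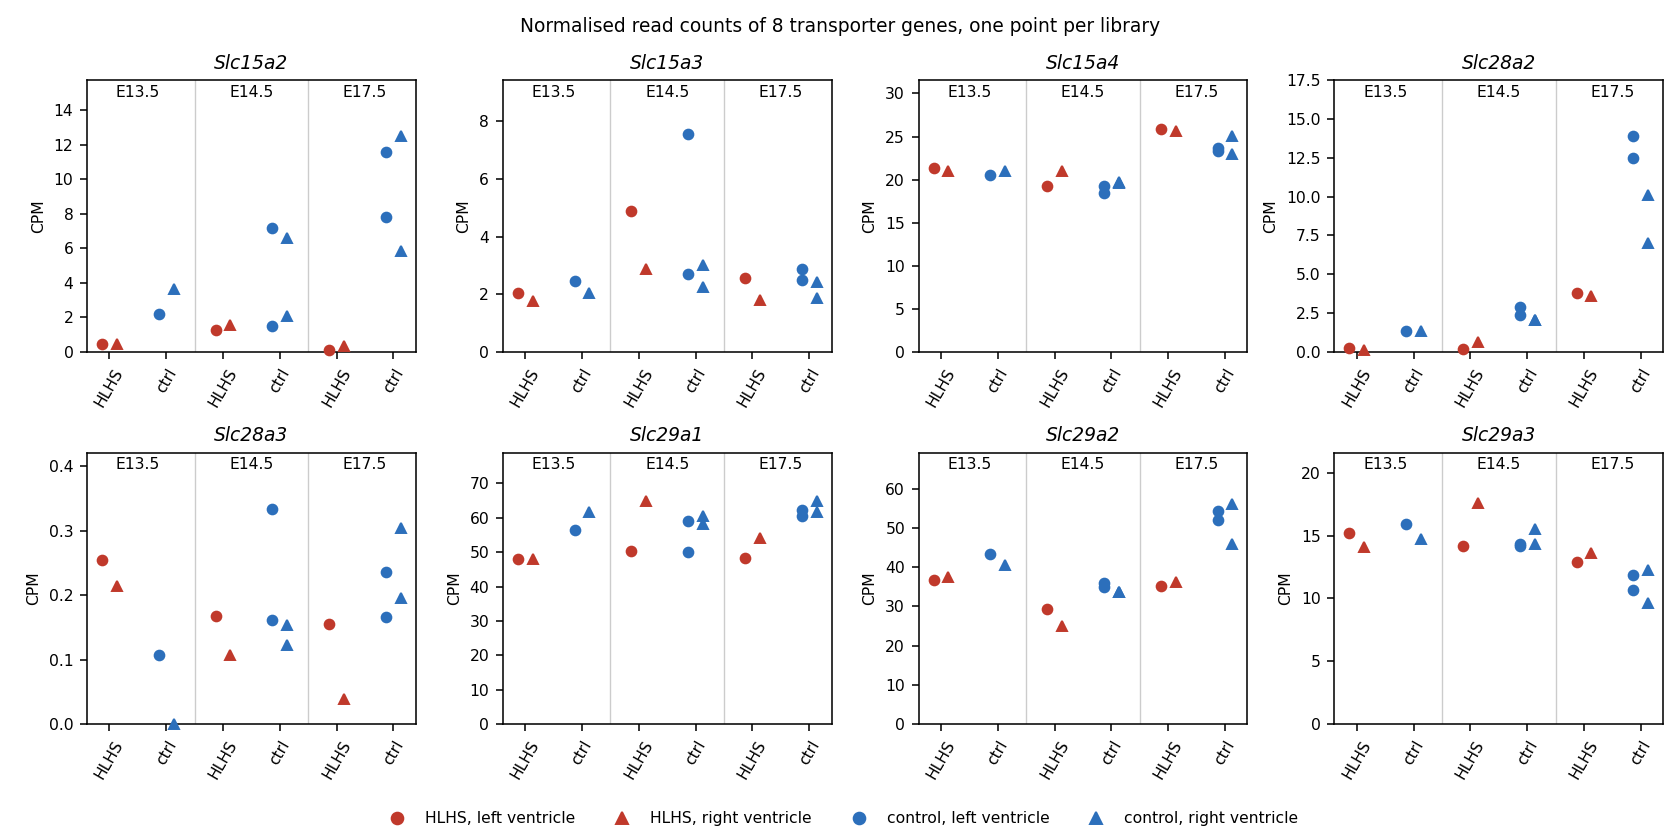
Levels of the 8 transporter genes in CPM (vertical axis from 0) by stage, with HLHS left of control, 1 point per library, circles for left and triangles for right ventricles. For Slc15a2 the HLHS points stay at or below 1.56 CPM, while the E14.5 control embryos are split and the E17.5 controls reach 12.5 CPM.

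Slc15a2 (ENSMUSG00000022899, chromosome 16), the high-affinity peptide carrier, was low in every HLHS library. In the left ventricle HLHS embryos had 0.467 CPM (E13.5), 1.25 CPM (E14.5) and 0.0778 CPM (E17.5). Left ventricles of controls had 2.20 CPM at E13.5, 1.49 and 7.16 at E14.5, and 7.84 and 11.6 at E17.5. No HLHS library reached the lowest control. In the right ventricle the values were 0.482, 1.56 and 0.353 CPM in HLHS embryos over the 3 stages. Control right ventricles had 3.63 CPM at E13.5, 2.06 and 6.62 at E14.5, and 5.87 and 12.5 at E17.5. The right ventricles did not overlap either. Means were 0.600 ± 0.599 CPM in HLHS and 6.07 ± 4.22 CPM in control left ventricles, and 0.799 ± 0.664 CPM in HLHS and 6.13 ± 3.98 CPM in control right ventricles (SD, n = 3 and 5). Slc15a2 was the single member of the 8 whose groups did not overlap, and 2.85% of tested genes in the left and 2.66% in the right ventricle had every HLHS library below every control library.

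Within litters the Slc15a2 gap differed widely in size. At E17.5 the HLHS left ventricle held 2 counts and its littermates 485, a ratio of 0.00794 (exact 95% counting interval 0.000959 to 0.0288). The E17.5 right ventricle was 26.1-fold lower in HLHS (13.6 to 57.4). At E13.5 HLHS was 4.71-fold lower in the left (2.38 to 10.2) and 7.54-fold lower in the right ventricle (3.72 to 17.3). At E14.5 the result depended on which littermate was used. Against control 3, HLHS was 5.71-fold lower on the left (3.88 to 8.66) and 4.24-fold lower on the right (3.02 to 6.05). Against control 2 the HLHS to control ratio was 0.842 on the left (0.503 to 1.40) and 0.758 on the right (0.497 to 1.15), intervals that include 1. These intervals cover counting error only.

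The E14.5 controls differed from each other several-fold in Slc15a2. Control 3 exceeded control 2 by 4.78-fold in the left ventricle (7.16 and 1.49 CPM) and by 3.20-fold in the right (6.62 and 2.06 CPM). Only 0.222% of tested genes were at least 3.20-fold apart in the same direction on both sides. Among the 8 genes, Slc15a2 alone was at least 2-fold apart in the same direction in both ventricles, against 113 of 16209 tested genes (0.697%). At E17.5 control 5 exceeded control 4 by 1.48-fold on the left and 2.12-fold on the right. At this stage 2.48% of tested genes were at least 1.48-fold apart in the same direction on both sides. There, 0 of the 8 genes were 2-fold apart in both ventricles, against 0.586% of tested genes. With 1 embryo set against 1, these differences have no replicate test. Their direction was the same in both ventricles, but the ventricles of an embryo are not replicates, so this does not replace a test.

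**Figure D2:**
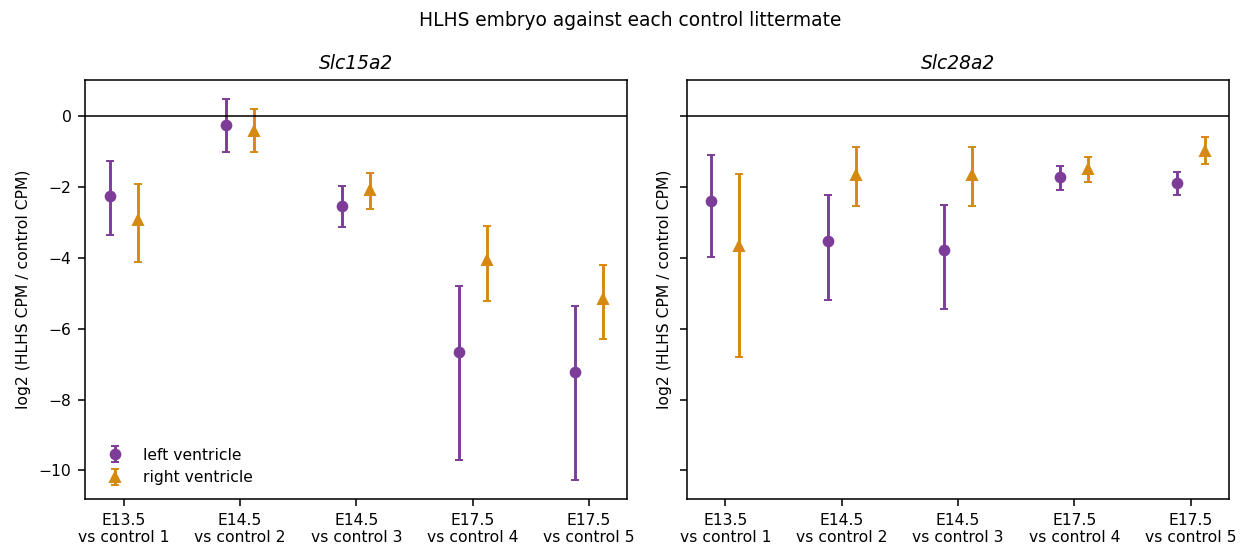
Log2 ratio of HLHS to control CPM for Slc15a2 and Slc28a2, with the HLHS embryo set against each control littermate in turn, circles for left and triangles for right ventricles, and bars for exact 95% counting intervals. For Slc15a2 the bars of the E14.5 embryo against control 2 cross 0, and all others lie below it, as do all bars of Slc28a2.

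Genes next to Slc15a2 did not share the gap between the E14.5 controls. On a log2(CPM + 0.25) scale, control 3 minus control 2 was 2.09 on the left and 1.57 on the right for Slc15a2. For its 3 nearest measured genes on either side, Cd86, Stfa1, Stfa2l1, Eaf2, Iqcb1 and Golgb1, it lay between -0.87 and 0.92. In the HLHS and control left ventricles those neighbours had fitted log2 differences between -0.72 (Stfa2l1) and 0.82 (Stfa1), against -3.06 for Slc15a2. In the right ventricles Stfa2l1 (-1.82 ± 0.65) and Stfa1 (-1.54 ± 0.44) were also lower in HLHS, against -2.70 for Slc15a2, and the other 4 lay between -0.44 and 0.27. The genes whose profile over 16 libraries was most like Slc15a2 by Pearson r, among 11949 genes ranked, were Doc2g (0.840), Capn1 (0.838), Insyn1 (0.837), Ybx2 (0.827) and Asb5 (0.819). All points share the litters and the HLHS split. None of the 5 had a comparable gap between the E14.5 controls: theirs lay between -0.18 and 0.39.

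Slc15a3 (ENSMUSG00000024737, chromosome 19), the endolysosomal carrier known from immune cells, was low and varied with 1 library. Left ventricles had 2.04, 4.89 and 2.57 CPM in HLHS embryos by rising stage, and controls had 2.47, then 2.70 and 7.56, then 2.86 and 2.48. Right ventricles had 1.77, 2.88 and 1.81 CPM in HLHS embryos, and controls had 2.05, then 2.25 and 3.00, then 2.43 and 1.86. The control left ventricle at 7.56 CPM also had the highest summed level of 12 macrophage markers of all 16 libraries, 246 CPM, against 140 CPM in the left ventricle of its littermate. Its Csf1r was 46.9 CPM against 26.2, and its Fcgr1 was 6.02 CPM against 2.09. Mrc1 was 14.9 CPM in both. The macrophage sums were 128 to 195 CPM in HLHS left and 132 to 246 in control left ventricles, and all 12 markers were above 0 in every group. The right ventricle of the same embryo had 139 CPM of these markers and 3.00 CPM of Slc15a3. The HLHS right ventricle at E14.5 had 216 CPM of the markers but 2.88 CPM of Slc15a3. HLHS right ventricles had sums of 143, 216 and 174 CPM by rising stage, each above all of its littermates. Of the 12 markers, 2 were called higher and 0 lower there. Slc15a3 in these right ventricles was below every littermate in 2 of 3 litters and above every littermate in 0. The part of macrophages in the Slc15a3 values was not tested.

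**Figure D3:**
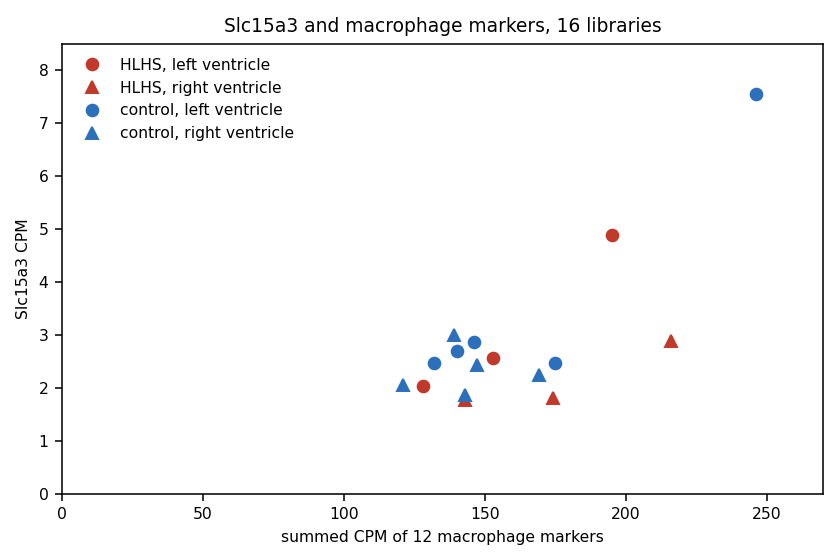
Slc15a3 in CPM against the summed CPM of 12 macrophage markers, 1 point per library. The control left ventricle at 7.56 CPM and 246 CPM stands at the upper right, apart from the other libraries.

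Slc15a4 (ENSMUSG00000029416, chromosome 5), its endolysosomal relative needed for signalling by nucleic-acid-sensing Toll-like receptors, was the steadiest peptide carrier. It had 21.3, 19.2 and 25.9 CPM in HLHS left ventricles over the 3 stages, and 20.5, 18.4, 19.3, 23.3 and 23.7 CPM in control left ventricles. Right ventricles had 21.0, 21.0 and 25.6 CPM in HLHS embryos and 19.6 to 25.1 CPM in controls. HLHS was above every littermate in 2 of 3 litters on the left and 3 of 3 on the right, by a fitted log2 difference of only 0.08 ± 0.07 and 0.07 ± 0.08 (SE).

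Slc28a2 (ENSMUSG00000027219, chromosome 2), the purine nucleoside carrier, was low in HLHS and high in late control hearts. By rising stage, HLHS left ventricles had 0.255, 0.209 and 3.77 CPM. Control left ventricles had 1.34 CPM at E13.5, 2.37 and 2.88 at E14.5, and 12.5 and 13.9 at E17.5. At each stage HLHS lay below all of its littermates, although the E17.5 HLHS library exceeded the younger controls. HLHS right ventricles had 0.107, 0.639 and 3.61 CPM over the 3 stages. Control right ventricles had 1.35 CPM at E13.5, 2.02 and 2.03 at E14.5, and 10.1 and 7.03 at E17.5. On this side too, HLHS was below every littermate in 3 of 3 litters.

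By litter, left ventricular Slc28a2 was 5.26-fold lower in HLHS at E13.5 (2.11 to 15.7), 12.7-fold lower at E14.5 (5.31 to 39.6) and 3.50-fold lower at E17.5 (2.82 to 4.38). The right ventricle was 3.17-fold lower at E14.5 (1.91 to 5.56) and 2.37-fold lower at E17.5 (1.89 to 3.00), and at E13.5 it held 2 counts in HLHS and 23 in its littermate. Unlike Slc15a2, Slc28a2 was alike in E14.5 littermates, with control 3 over control 2 at 1.21-fold on the left and 1.00-fold on the right. Slc28a2b, a mouse paralogue from which reads might be shared, held 0 to 1 counts per library. How reads with several matches were counted is not given in the sources used here.

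The genes whose profile was most like Slc28a2 over the 16 libraries were Ushbp1 (r = 0.977), Cadm4 (0.976), Dhrs7c (0.974), Sult1a1 (0.974) and Iqsec2 (0.973). Dhrs7c, a dehydrogenase of muscle sarcoplasmic reticulum, had the largest HLHS difference of the 5, with means of 14.6 CPM in HLHS and 58.1 CPM in control left ventricles. These points share the litters and the HLHS split. Around Slc28a2, the nearest measured genes had fitted log2 differences in the left ventricle of 0.30 ± 0.11 (Shf), -0.78 ± 0.35 (Duox2), -0.04 ± 0.06 (Sord), -1.14 ± 0.34 (Bambi-ps1), 0.24 ± 0.12 (Gatm) and -0.05 ± 0.12 (Spata5l1).

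Slc28a3 (ENSMUSG00000021553, chromosome 13), the broad concentrative carrier, was at the limit of detection. It had 0 to 10 counts per library and 68 in all, that is 0 to 0.334 CPM. Control right ventricle 1 had 0 counts, which allows up to 0.176 CPM. A difference between groups was not detectable at this depth, and the gene did not pass the filter on low counts for any HLHS or side comparison.

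Slc29a1 (ENSMUSG00000023942, chromosome 17), the main equilibrative carrier, ranged little. It had 48.0, 50.3 and 48.2 CPM in HLHS left ventricles and 56.5, 49.9, 59.1, 62.2 and 60.4 CPM in control left ventricles. Right ventricles had 47.9, 64.9 and 54.0 CPM in HLHS and 58.1 to 64.9 CPM in controls. Its fitted log2 differences were -0.23 ± 0.08 on the left and -0.13 ± 0.09 on the right, and the groups overlapped.

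Slc29a2 (ENSMUSG00000024891, chromosome 19), the other equilibrative carrier of the cell surface, was a little lower in HLHS in every litter. HLHS left ventricles had 36.7, 29.4 and 35.3 CPM and controls 43.4 at E13.5, 35.9 and 35.0 at E14.5, and 54.2 and 52.1 at E17.5. HLHS right ventricles had 37.5, 25.0 and 36.3 CPM and controls 40.6, then 33.6 and 33.7, then 56.1 and 45.9. HLHS was below all littermates in 3 of 3 litters on both sides, with fitted log2 differences of -0.38 ± 0.08 and -0.37 ± 0.10. Slc29a3 (ENSMUSG00000020100, chromosome 10), the carrier of lysosomes and mitochondria, had 12.9 to 15.2 CPM in HLHS and 10.7 to 15.9 CPM in control left ventricles. It had 13.6 to 17.6 CPM in HLHS and 9.63 to 15.5 CPM in control right ventricles.

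Read as a set, 3 of the 7 genes that passed the filter (Slc15a2, Slc28a2 and Slc29a2) had an edgeR adjusted p under 0.05 and were lower in HLHS in the left ventricle, where 6.61% of tested genes were called lower and 6.17% higher. In the right ventricle 2 of 7 did (Slc15a2 and Slc28a2), where 3.05% were called lower and 3.56% higher. The set was chosen on this contrast, so nothing is read from these counts. The fitted log2 difference of Slc15a2 was -3.06 ± 0.78 on the left and -2.70 ± 0.61 on the right, and that of Slc28a2 was -2.21 ± 0.26 and -1.57 ± 0.28 (SE). Median differences of the 7 were -0.23 and -0.13, against 0.01 over all tested genes on either side. The left gap minus the right gap was -0.39 ± 0.40 for Slc15a2 and -0.63 ± 0.38 for Slc28a2, and 0 of 7 genes differed between ventricles by adjusted p from edgeR or DESeq2 and 0 by unadjusted p under 0.05, where 0.0182% of all tested genes were called. The size of the Slc15a2 gap depended on single embryos: on the left it was -4.40 without HLHS embryo 2 and -1.93 without HLHS embryo 3, and on the right -4.00 and -1.88. Leaving out 1 embryo at a time, Slc28a2 lay between -3.08 and -1.89 on the left and between -2.06 and -1.39 on the right. In those fits Slc15a2 was past the threshold in 2 of 8 on the left and 4 of 8 on the right. Slc28a2 was past it in 8 of 8 and 7 of 8, and Slc29a2 in 8 of 8 on the left. These counts too are a description.

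Between control embryos of E17.5 and E14.5, 2 embryos each with both ventricles summed, 4 of the 8 genes changed. Slc28a2 rose 4.65-fold (log2 2.22 ± 0.13, edgeR quasi-likelihood test with Benjamini-Hochberg adjusted p = 0.000381). Slc29a2 rose 1.52-fold (0.60 ± 0.09, edgeR adjusted p = 0.00425). Slc15a4 rose 1.24-fold (0.31 ± 0.08, edgeR adjusted p = 0.0260), and Slc29a3 fell 1.30-fold (-0.38 ± 0.11, edgeR adjusted p = 0.0408). The changes with stage thus included concentrative, equilibrative and endolysosomal carriers. Among other genes of the 3 families, 0 of 3 in this fit rose and 2 fell. These were Slc15a1 (-2.26 ± 0.58, edgeR adjusted p = 0.0274) and Slc28a1 (-0.87 ± 0.26, edgeR adjusted p = 0.0457). Both were scarce, with 1 to 13 and 7 to 24 counts per library. Of all tested genes, 15.8% were called higher and 14.1% lower, and the median of the 8 was 0.26 against -0.01 over all genes. Slc15a2 had a log2 difference of 1.12 ± 0.54 (edgeR adjusted p = 0.157). It was 0.46 without control 2 and 2.42 without control 3, past the threshold in both of those fits, and it did not pass without control 4 (1.47) or control 5 (0.66). Slc15a3 (-0.73 ± 0.35), Slc28a3 (0.20 ± 0.44) and Slc29a1 (0.14 ± 0.08) did not pass, with edgeR adjusted p of 0.163, 0.763 and 0.219. Slc15a3 was -1.19 without control 2, past the threshold in that fit alone, and -0.02 without control 3. Leaving out each embryo in turn kept Slc28a2 between 2.13 and 2.32 and Slc29a2 between 0.50 and 0.69, both past the threshold in 4 of 4 fits, but Slc15a4 passed in 1 of 4 (without control 5) and Slc29a3 in 2 of 4 (lost without control 2 or 4). Such a fit leaves 1 embryo at a stage, which is assumed to vary like those of the other stage.

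Between ventricles, 0 of 7 genes passed in controls by edgeR or DESeq2, where 6.10% of tested genes were called (2.09% higher on the left, 4.01% lower), although 2 of 7 had an unadjusted p under 0.05. Slc15a3 was 0.55 ± 0.18 higher on the left on the log2 scale, in 5 of 5 control embryos (edgeR adjusted p = 0.112), and Slc28a2 was 0.49 ± 0.14 higher on the left in 4 of 5 (edgeR adjusted p = 0.0772). The difference of Slc15a3 was 0.31 ± 0.15 without control 3, and that of Slc28a2 was 0.31 ± 0.14 without control 5. In HLHS embryos 0 of 7 passed by edgeR or DESeq2, where 4.04% of tested genes were called (1.15% higher on the left, 2.89% lower), and 1 of 7 had an unadjusted p under 0.05. Slc15a3 was again higher on the left in 3 of 3 HLHS embryos (0.54 ± 0.22, edgeR adjusted p = 0.267). The other 5 members in the fit lay between -0.10 and 0.07 in controls, and Slc15a2 was -0.49 ± 0.41 in HLHS.

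**Figure D4:**
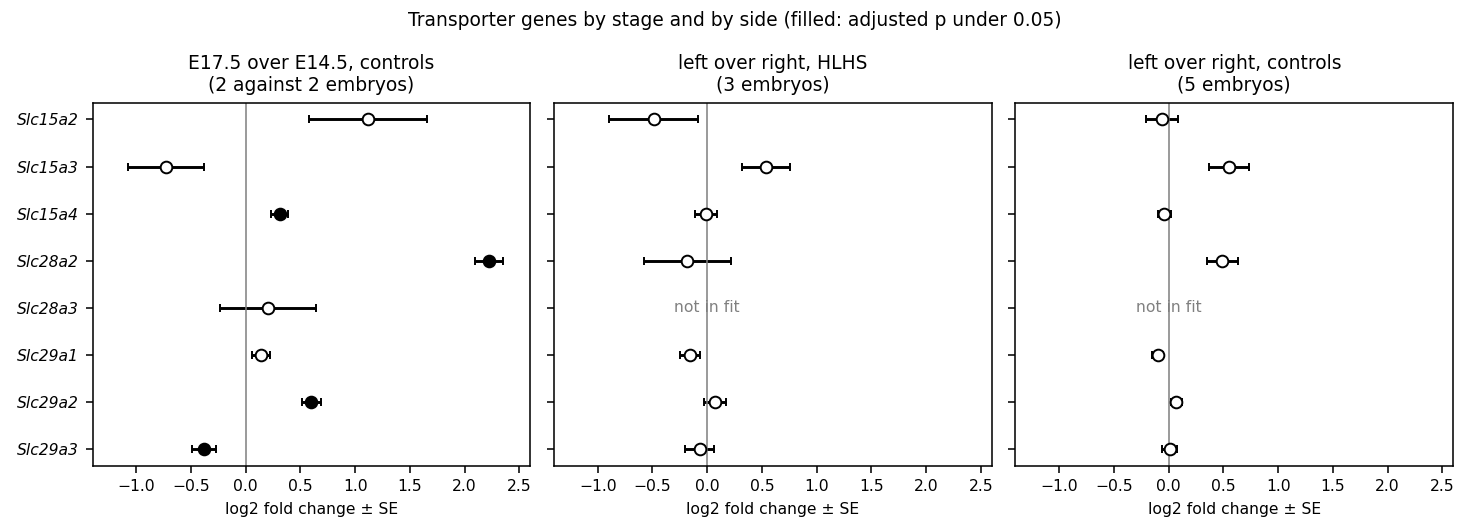
Fitted log2 fold changes with standard errors for the members, in E17.5 over E14.5 controls and in left over right ventricles of HLHS and of control embryos. Filled points had an adjusted p under 0.05, which 4 genes did by stage, led by Slc28a2 at 2.22, and 0 did between ventricles.

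Genes that make, break down or sense the transported substrates were described from 2 lists. The lists were chosen with earlier results of these data known, and most genes named are those of smallest p. Calls and adjusted p-values of list genes for HLHS against control are therefore a description. Of 30 measured genes of nucleoside metabolism and adenosine signalling, 2 rose and 2 fell in HLHS left ventricles, and 0 rose and 2 fell in the right, with list medians of 0.02 and -0.05. Of all tested genes, 6.17% were called higher and 6.61% lower on the left, and 3.56% higher and 3.05% lower on the right, so 2 of 30 is near the share over all genes. Ampd3, which deaminates AMP, had 11.0, 10.7 and 19.8 CPM in HLHS left ventricles over the stages and 20.8, 19.8, 21.1, 37.5 and 41.9 CPM in controls. It was -0.96 ± 0.08 (edgeR adjusted p = 0.000327). The 2 genes that rose in HLHS left ventricles were Ahcy (0.25 ± 0.05, edgeR adjusted p = 0.0133) and Nt5c2 (0.17 ± 0.05, edgeR adjusted p = 0.0380). Adora1, the A1 adenosine receptor, fell in HLHS right ventricles, at 12.2, 13.2 and 28.6 CPM against 34.5 to 44.7 CPM in controls (-1.10 ± 0.18, edgeR adjusted p = 0.0103). It also fell in HLHS left ventricles (-0.37 ± 0.10, edgeR adjusted p = 0.0339). In HLHS embryos it was higher on the left than on the right (0.73 ± 0.13, edgeR adjusted p = 0.0148). For the left gap minus the right gap, however, 0 of the 30 genes were called, where 0.0182% of all tested genes were. Between ventricles of HLHS embryos Nt5e, the surface enzyme that makes adenosine from AMP, was 1.99-fold lower on the left (SE 0.15 on the log2 scale, edgeR adjusted p = 0.00930). In controls it was 1.41-fold lower on the left (SE 0.08, edgeR adjusted p = 0.00690). Of the 30 genes, 1 was called higher (Dck) and 2 lower (Nt5e and Entpd1) on the left in controls. In HLHS embryos 1 was called higher (Adora1) and 2 lower (Nt5e and Entpd1). The shares over all tested genes were 2.09% higher and 4.01% lower in controls, and 1.15% higher and 2.89% lower in HLHS embryos. In the stage comparison 4 of 31 rose and 4 fell, against 15.8% and 14.1% of all tested genes. The smallest p-values were those of Ampd3 (0.92 ± 0.08), Xdh (xanthine dehydrogenase, 1.75 ± 0.20) and Nt5e (1.28 ± 0.16).

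Of 20 measured genes of peptide handling and endolysosomal sensing, 2 rose and 3 fell in HLHS left ventricles, and 0 rose and 2 fell in the right, with medians of -0.17 and 0.04. The shares over all tested genes were 6.17% higher and 6.61% lower on the left and 3.56% higher and 3.05% lower on the right. For the left gap minus the right gap, 0 of the 20 were called. Between ventricles, 0 were called higher and 1 lower on the left in controls, and 0 in HLHS embryos. Carns1, the enzyme that joins beta-alanine and histidine to carnosine, a dipeptide that Slc15a2 can carry, had 5.73, 9.99 and 42.2 CPM in HLHS left ventricles over the stages. Control left ventricles had 18.1 CPM at E13.5, 25.9 and 28.6 at E14.5, and 78.6 and 74.7 at E17.5. HLHS was below every littermate (-1.23 ± 0.13, edgeR adjusted p = 0.00107), and the right ventricle also fell (-0.68 ± 0.09, adjusted p = 0.00663). The 2 genes that rose in HLHS left ventricles were Dpp3 (0.33 ± 0.05, edgeR adjusted p = 0.00428) and Cndp2 (0.26 ± 0.07, edgeR adjusted p = 0.0380). Tlr3 fell there (-0.46 ± 0.10, edgeR adjusted p = 0.0153). Carns1 rose with stage in controls (1.38 ± 0.09, edgeR adjusted p = 0.000457), where 5 of 20 rose and 5 fell, against 15.8% and 14.1% of all tested genes. Hdc, which makes histamine and is a mast cell gene, fell in HLHS left ventricles (-0.76 ± 0.22, edgeR adjusted p = 0.0478) and right ventricles (-1.12 ± 0.15, adjusted p = 0.00676), and in controls it was lower on the left than on the right (-0.45 ± 0.10, edgeR adjusted p = 0.0244). Mast cell markers moved the same way, with summed levels of 26.6 to 29.4 CPM in HLHS and 35.1 to 57.1 CPM in control left ventricles and 3 of 5 listed called lower on each side, and their part in the Hdc result was not tested.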

How the data were processed

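Total RNA of each ventricle was prepared with TruSeq RNA v2 libraries, per the labels' protocols. The deposited table holds whole-number counts per Ensembl gene, not normalized by the authors. The submitters' processing notes name TopHat2 2.0.9, Picard, HTSeq 0.5.4p5, edgeR 3.4.2 and build mm9; the strand setting, duplicate handling and annotation are not stated in the labels read for this work. Of 37991 rows, 32919 (86.6%) matched a symbol, and exon lengths came from GENCODE M21 on GRCm38. Counts were scaled by TMM and tested with edgeR 4.0.16 (quasi-likelihood, filterByExpr with a minimum count of 10, Benjamini-Hochberg over all tested genes, threshold 0.05) in R 4.3.3. HLHS was fitted with stage, which is the litter, as a term; left against right with embryo as a block; stage on counts summed over an embryo's ventricles. Ratios of counts between libraries carry exact binomial 95% intervals, which cover counting error only. SE is the absolute log2 value over the square root of F. Both ventricles come from 1 embryo by the titles, so samples are paired. Deviations from group means correlated within an embryo at 0.525 to 0.838 in controls and 0.493 to 0.771 in HLHS. Between different embryos the highest correlation was 0.686 in controls and 0.0128 in HLHS. Group means pool the stages, so these values also carry stage and litter and do not test the pairing. The 26 replicate pairs all differed beyond sampling noise (lowest chi-square per degree of freedom 7.01). The genes and lists were chosen with earlier results of these data known. All 8 members are named in each comparison. Each list gives counts by HLHS, by stage and by side, and up to 3 examples with the smallest p. Adora1 and Hdc, named by that rule in HLHS right ventricles, are also given in their other comparisons. Nt5c2 and Cndp2 are added so that every list gene called higher in HLHS left ventricles is named. The alike genes are the 5 of highest Pearson r of log2(CPM + 0.25); neighbours are the 3 nearest measured genes on each side in RefSeq order. Pnp and Tasl did not match the table and are not analysed here. Alternatives were DESeq2 1.42.0, its size factors, no filter, no block, single ventricles and leaving out each embryo. The test was checked on simulated counts.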

Additional observations from a re-analysis of the deposited data

Results flagged for a closer look

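Among the 16 groups of 5 control libraries examined, 1 held a library far from the rest. In control left ventricles, Slc15a3 was highest in replicate 3 at 7.56 CPM, where the other 4 libraries ran from 2.47 to 2.86 CPM, and the gap to the nearest library was 0.922 of the whole range against a critical value of 0.71. Chance alone marks about 1 in 20 groups in this way.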

How the results depend on the processing

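Outside the fits that left out an embryo, no member's log2 difference changed sign. Without the replicate block, members past the threshold fell to 0 in HLHS left and 0 in HLHS right ventricles, and genes past it numbered 1 on the left, 0 on the right, 9 for the left minus right gap, 32 between control ventricles and 4 between HLHS ventricles. With the block, which is the litter in the HLHS against control fits and the embryo in the others, these were 2043, 1067, 3, 990 and 637. With no filter on low counts, 1720 genes passed in HLHS right ventricles, 217 for the gap, 1570 between control ventricles (with 2 members, Slc15a3 at 0.57 and Slc28a2 at 0.51) and 1309 between HLHS ventricles. DESeq2 called 134 genes for the gap and 3 members in HLHS right ventricles. Right ventricles alone gave 2 members and 2905 genes by stage, Slc15a4 (adjusted p = 0.0908 by edgeR) and Slc29a3 (0.0742) being lost; the cause was not tested.

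Leaving out each embryo in turn, members past the threshold ranged from 2 to 4 in HLHS left, 1 to 2 in HLHS right and 2 to 4 by stage, and stayed at 0 for the gap and the ventricle comparisons. Genes ranged from 845 (without HLHS 2) to 2309, 195 (without control 1) to 1518 and 3488 to 4531, from 0 to 135 (without HLHS 3) for the gap, from 486 to 883 between control ventricles and from 270 to 1117 between HLHS ventricles. Signs turned only for small differences. In HLHS left ventricles Slc15a3 ran from -0.32 to 0.19 and Slc29a3 from -0.02 to 0.09, and in the right Slc15a3 ran from -0.25 to 0.01. For the gap, Slc15a3 ran from -0.18 to 0.23, Slc15a4 from -0.01 to 0.06, Slc29a1 from -0.17 to 0.01 and Slc29a2 from -0.11 to 0.02. Between control ventricles Slc15a2 ran from -0.21 to 0.05 and Slc29a3 from -0.02 to 0.06. Between HLHS ventricles Slc15a4 ran from -0.04 to 0.03, Slc28a2 from -0.36 to 0.23 (not past the filter without HLHS 3), Slc29a2 from -0.02 to 0.12 and Slc29a3 from -0.18 to 0.03. By stage Slc28a3 ran from -0.11 to 0.54. The littermate counts were the same with plain library totals. Depth limits Slc28a3 and the HLHS counts of Slc15a2 and Slc28a2, and with 3 HLHS embryos in 3 litters the values rest on 1 HLHS embryo per stage.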
